A study of Homo sapiens with 6 samples.

Results

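Cells detect foreign or misplaced nucleic acids with a small set of receptors and adaptors, and 10 of these genes are described here in human keratinocytes with and without *FGFR2*. They were chosen by symbol, as the genes of cytosolic DNA and RNA sensing up to *TBK1* and *IRF3*, and their Ensembl identifiers were matched in the GENCODE annotation. All 10 were found among 21475 genes used, and all 10 passed the minimum mean of 0.5 FPKM that left 12241 genes for testing. FPKM express the fragments of a gene per kilobase of transcript and relative to library depth.

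In the DNA branch, cGAS (*CGAS*) binds double-stranded DNA and makes the second messenger cyclic GMP-AMP, which activates STING (*STING1*) on the endoplasmic reticulum. *IFI16* encodes a further DNA-binding sensor, and *TREX1* an exonuclease that removes cytosolic DNA before it is sensed. In the RNA branch, RIG-I (*RIGI*, formerly *DDX58*) and MDA5 (*IFIH1*) recognize viral RNA in the cytosol and signal through MAVS on mitochondria, whereas TLR3 recognizes double-stranded RNA in endosomes and uses another adaptor. Both branches converge on the kinase TBK1, which phosphorylates the transcription factor IRF3, an activator of interferon genes and of interferon-stimulated genes. Several of the sensors are themselves interferon-stimulated. Keratinocytes form the outermost barrier of the skin and use these pathways against viruses and upon tissue damage.

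RNA of 3 WT and 3 *FGFR2* KO lines of HaCaT, a spontaneously immortalized human keratinocyte line, was sequenced with 1 library per line, from cells in serum-containing medium without an added stimulus. The KO lines were expanded from single sorted cells after CRISPR/Cas9 editing of *FGFR2*, so each stands for 1 clone, and the sequenced WT lines are described as clonally expanded too, although a WT line of the study was the original population and the labels do not tie lines to replicates. The labels do not state whether libraries of a group were grown or extracted separately in other respects, and p-values measure only the spread between these libraries. The question was which genes differ in the absence of FGFR2 signaling.

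The libraries held an estimated 67500000 to 87500000 fragments. *FGFR2* was at 15.0 to 39.7 FPKM in the WT and at 2.26 to 4.31 FPKM in the KO libraries, so that the groups did not overlap. All 7 keratinocyte markers examined were above 1 FPKM in each library, with summed levels of 10828 to 17844 FPKM in WT and 14539 to 26615 FPKM in KO libraries. The 5 fibroblast markers added up to 7.99 to 33.2 FPKM in WT and 6.90 to 12.6 FPKM in KO libraries, and their highest library differed by gene. *DCN* was at 15.5 FPKM in WT replicate 2 and at most 1.66 FPKM elsewhere, *COL1A1* was at 16.7 FPKM there and 15.0 FPKM in WT replicate 1, and *LUM* was highest in KO replicate 1 with 1.85 FPKM. *COL1A2* and *PDGFRB* stayed below 0.1 FPKM in each library. Of the 4 endothelial markers, *CDH5* was at 4.92 FPKM in WT replicate 2 and at most 0.128 FPKM elsewhere, *VWF* was at 18.0 to 27.1 FPKM in WT and 5.66 to 17.4 FPKM in KO libraries, and *KDR* was listed at 0. Of 6 leukocyte markers only *CD68* exceeded 1 FPKM, with sums of 11.7 to 20.7 FPKM in WT and 4.50 to 10.98 FPKM in KO libraries. Mitochondrial genes took 21.5% to 27.6% of the FPKM in WT and 11.9% to 23.7% in KO libraries.

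Among the 10 genes, mean levels in the WT lines spanned from 1.32 FPKM for *CGAS* to 99.1 FPKM for *IFI16*. *IFI16* lay above 91.1% of the tested genes, and *CGAS* above only 8.28%. Next after *IFI16* came *IRF3* (60.6 ± 1.37 FPKM, SD, n = 3), *MAVS* (33.6 ± 1.51 FPKM) and *TBK1* (24.2 ± 1.76 FPKM), each apart from its neighbours in all WT libraries. *STING1* (13.1 ± 5.71 FPKM) and *TREX1* (11.2 ± 0.498 FPKM) followed, and their WT libraries overlapped. *IFIH1* (4.93 ± 1.48 FPKM), *RIGI* (4.26 ± 0.470 FPKM) and *TLR3* (4.17 ± 3.34 FPKM) could not be ordered, since neighbours overlapped. *CGAS* (1.32 ± 0.250 FPKM) lay below all of them in each WT library. The order of the KO means was the same for the first 8 genes, and only *TLR3* and *CGAS* exchanged places. *TBK1*, *IRF3* and *MAVS* were therefore more abundant at the RNA level than *CGAS* and the genes of the 3 RNA sensors, whereas the DNA sensor gene *IFI16* lay above them. No test was run between different genes.

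**Figure D1:**
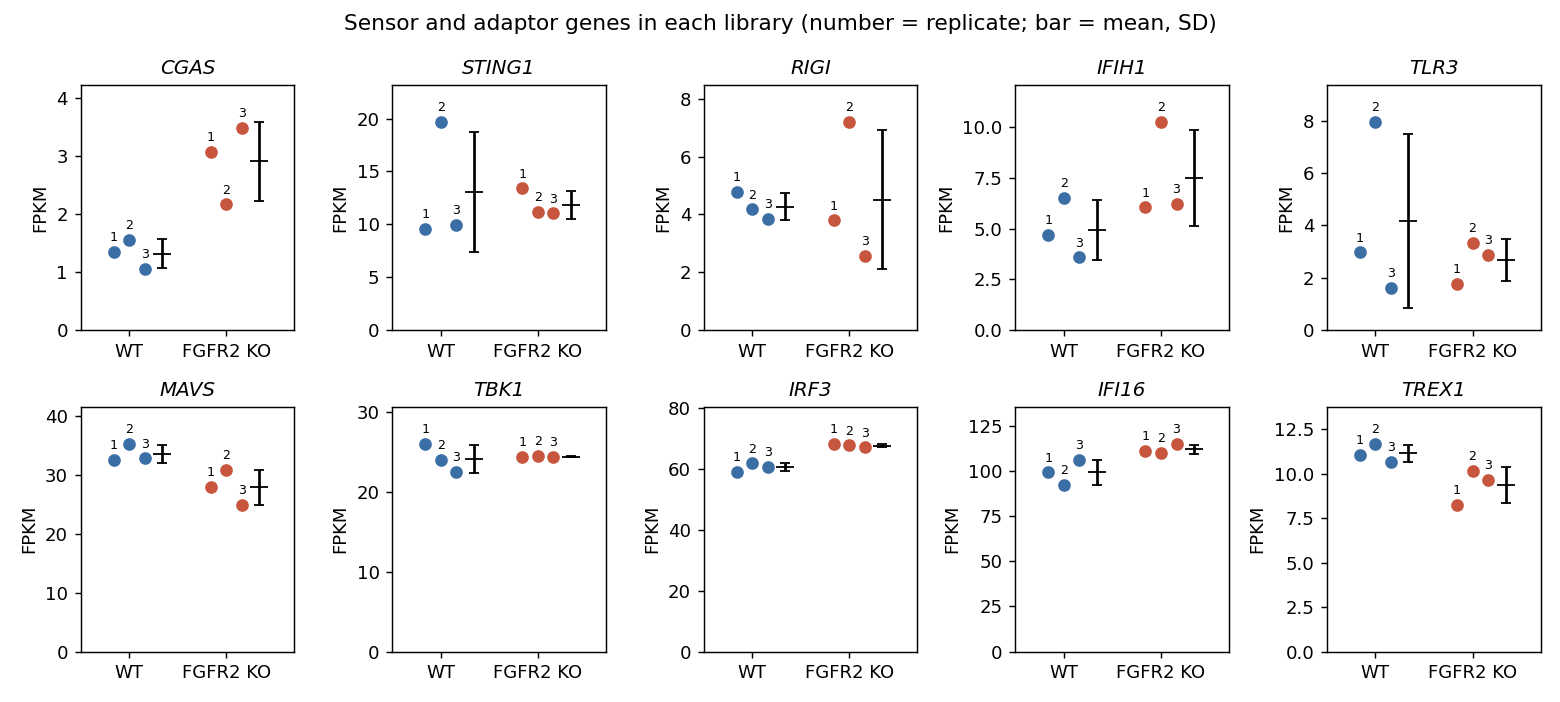
Expression of the 10 sensor and adaptor genes in FPKM (vertical axes, linear from 0) in the 3 WT and the 3 FGFR2 KO libraries. Each point is 1 library with its replicate number, and the bar beside each group gives the mean and SD. CGAS, IRF3 and IFI16 lie higher and MAVS and TREX1 lower in each KO library than in any WT library, and WT replicate 2 and KO replicate 2 set the spread of several sensors.

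KO and WT libraries were compared with limma on log2(FPKM + 0.5) across all 12241 tested genes. A gene was called at a Benjamini-Hochberg adjusted p of at most 0.05 with an absolute log2 fold change of 0.5 or more. Of the 10 genes 0 were called, and 0.0% of all tested genes were. The smallest adjusted p over all genes was 0.261. *FGFR2* itself was not called either (log2 fold change -2.73, standard error 0.36, limma adjusted p = 0.261). A gene that is not called here is therefore not shown to be unchanged. With a count model, the paper reported differing genes, with *CGAS* and *ISG15* among those higher in KO. With p not above 0.05 before adjustment and the same minimum fold, 1 of the 10 genes differed, *CGAS*, where 12.5% of the tested genes did (10.2% higher and 2.33% lower). *CGAS* and *IFIH1* were the 2 genes past the minimum fold alone, as were 19.4% of all tested genes. The median log2 fold change of the 10 genes was -0.01, and that of all tested genes 0.09. In 5 of the 10 genes the KO and WT libraries did not overlap, 3 higher and 2 lower in KO, where 24.1% of the tested genes were separated in this way (18.3% higher and 5.77% lower). A two-sided exact permutation test gives p = 0.1 for each of these 5 genes, the smallest p that 3 against 3 libraries allow.

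*CGAS* (ENSG00000164430, chromosome 6, 73413515 to 73452297, minus strand, GRCh38) was at 1.35, 1.55 and 1.05 FPKM in WT replicates 1, 2 and 3. In KO replicates 1, 2 and 3 it was at 3.07, 2.17 and 3.48 FPKM. Each KO library lay above each WT library, with the lowest KO level in replicate 2. The KO mean was 2.21 times the WT mean, a log2 fold change of 0.90 (standard error 0.23, 95% interval 0.36 to 1.44, limma adjusted p = 0.261). The WT level is that of a weakly expressed gene, and the library with the lowest value held about 240 fragments on the main transcript, which gives a counting error of 6.45%. The spread between WT libraries was 19.0% of the mean and that between KO libraries 23.2%. *CGAS* shares 180 of its 4174 exonic bases with *DDX43* on the other strand. That gene was at 0.689 to 2.14 FPKM over all libraries (log2 fold change 0.10, standard error 0.32). With the FPKM of both genes summed, which was not among the alternatives given below, the log2 fold change was 0.62. When the libraries were weighted by quality, *CGAS* was the 1 gene of the 10 that was called (log2 fold change 0.88, adjusted p = 0.0313), where that fit called 11.4% of all tested genes and gave WT replicate 1 89.7% of the weight of the WT group.

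*IFI16* (ENSG00000163565, chromosome 1, 158999968 to 159055155, plus strand) was at 99.1, 92.1 and 106.2 FPKM in WT replicates 1, 2 and 3. In the KO replicates it was at 110.9, 109.8 and 114.8 FPKM. The KO libraries all lay above the WT libraries, by 12.8% in the mean. The log2 fold change of 0.17 (standard error 0.12, adjusted p = 0.479) was small. With median-of-ratios scaling between the libraries it was 0.06 and the groups overlapped.

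*STING1* (ENSG00000184584, chromosome 5, 139475533 to 139482935, minus strand) was at 9.57, 19.6 and 9.95 FPKM in the WT replicates. In the KO replicates it was at 13.4, 11.2 and 11.02 FPKM. WT replicate 2 had the highest level of the 6 libraries, and the other 2 WT libraries lay below all KO libraries. The log2 fold change was -0.06 (standard error 0.28, 95% interval -0.70 to 0.58, adjusted p = 0.925), and it was 0.26 without WT replicate 2. WT replicate 2 is also the library with the highest *DCN*, *COL1A1*, *CDH5* and *CD68* levels, whereas *COL1A2*, *PDGFRB*, *LUM* and *VWF* were highest in other libraries. The part of what those levels mark in the *STING1* value was not tested.

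*TREX1* (ENSG00000213689, chromosome 3, 48465811 to 48467645, plus strand) was at 11.1, 11.7 and 10.7 FPKM in WT and at 8.24, 10.2 and 9.66 FPKM in KO replicates 1, 2 and 3. All 3 KO values were below the lowest WT value. The KO mean was 83.9% of the WT mean, with a log2 fold change of -0.25 (standard error 0.15, adjusted p = 0.413). Without KO replicate 1 it was -0.16. All 1448 exonic bases of *TREX1* lie within exons of *ATRIP* on the same strand, so that the assignment of reads between both genes is uncertain. *ATRIP*, which encodes the partner of the checkpoint kinase ATR, was at 3.75 to 4.09 FPKM in WT and 4.62 to 6.61 FPKM in KO libraries (log2 fold change 0.39, standard error 0.19). With the FPKM of both genes summed, the log2 fold change was -0.04. From these values, a difference in *TREX1* and a different division of shared reads cannot be told apart.

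**Figure D2:**
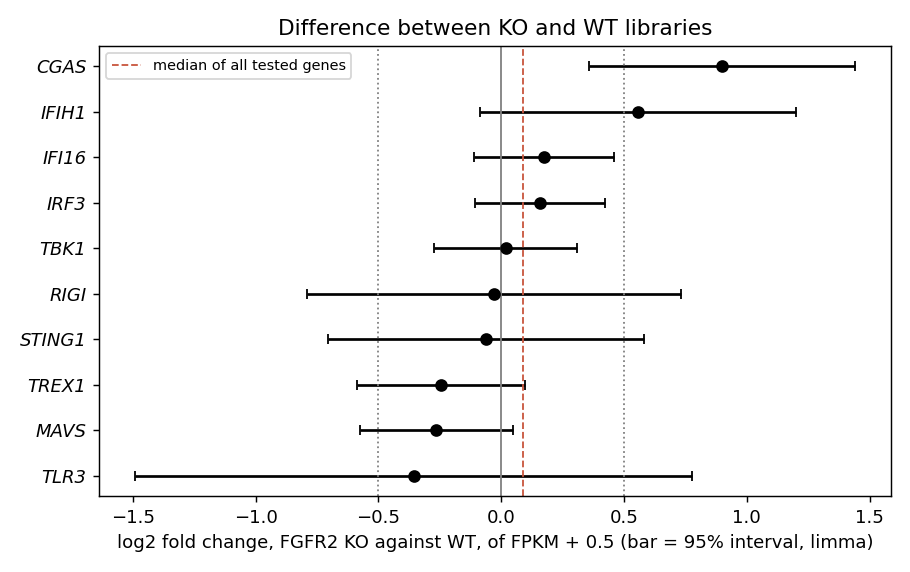
Log2 fold change of each gene between KO and WT libraries (horizontal axis, of FPKM + 0.5) with its 95% interval from limma. Dotted lines mark the minimum fold change of 0.5 in either direction and the dashed line the median of all tested genes, 0.09. Only the interval of CGAS, 0.36 to 1.44, does not include 0.

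The 3 RNA sensors varied more between lines of the same genotype than the genes downstream of them. The SD was 11.03% to 80.1% of the mean in WT and 30.2% to 53.2% in KO libraries for *RIGI*, *IFIH1* and *TLR3*, against 2.26% to 7.27% and 0.369% to 10.6% for *MAVS*, *TBK1* and *IRF3*. *RIGI* (ENSG00000107201, chromosome 9, 32455302 to 32526208, minus strand) was at 4.77, 4.17 and 3.85 FPKM in the WT replicates. In the KO replicates it was at 3.79, 7.19 and 2.55 FPKM, so that the highest and the lowest level of the 6 libraries were both KO lines. The WT libraries lay between them. The log2 fold change was -0.03 (standard error 0.33, 95% interval -0.79 to 0.73, adjusted p = 0.973), and it went from -0.39 without KO replicate 2 to 0.27 without KO replicate 3. A second gene on this strand, ENSG00000288684, shares 4471 of the 10345 exonic bases of *RIGI*, but was listed at no more than 0.318 FPKM in any library.

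*IFIH1* (ENSG00000115267, chromosome 2, 162267074 to 162318684, minus strand) was at 4.70, 6.51 and 3.58 FPKM in the WT and at 6.04, 10.2 and 6.23 FPKM in the KO replicates. The groups overlapped only because WT replicate 2 lay above KO replicates 1 and 3. The KO mean was 1.52 times the WT mean, with a log2 fold change of 0.56 (standard error 0.28, 95% interval -0.09 to 1.20, adjusted p = 0.339). It was 0.32 without KO replicate 2 and 0.37 without WT replicate 3. *TLR3* (ENSG00000164342, chromosome 4, 186068911 to 186088073, plus strand) was at 2.96, 7.94 and 1.60 FPKM in the WT and at 1.76, 3.32 and 2.88 FPKM in the KO replicates. It had the widest range of the 10 genes, 4.96 times from the lowest to the highest library, and both ends of the range were WT lines. Its log2 fold change was -0.36 (standard error 0.49, adjusted p = 0.722) and turned to 0.19 without WT replicate 2. *DCN*, *COL1A1*, *CDH5* and *CD68* were highest in that same library, *COL1A2*, *PDGFRB*, *LUM* and *VWF* were not, and their part in the *TLR3* level was not tested.

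The stretches of the promoters that hold a match to an interferon response sequence are shown for the 4 sensors that have one, beside the same region of *MAVS*, which has none. Promoters of 7 of the 10 genes were in the RefSeq table (GRCh38.p14), all but *CGAS*, *STING1* and *IRF3*, from 250 bases before to 50 after the transcription start. The search covered both strands for the core of the interferon-stimulated response element, in which 2 GAAA blocks lie 2 bases apart, and, added after the sequences had been seen, for the same blocks 1 base apart, GAAANGAAA. The start is that of the RefSeq transcript, which for *IFI16*, *TLR3*, *RIGI*, *MAVS* and *TREX1* lies inside the longer GENCODE gene. Capitals mark the matches, which on the other strand read as the reverse complement.
*IFIH1*, chr2:162318685-162318774, minus strand, the 90 bases before the start: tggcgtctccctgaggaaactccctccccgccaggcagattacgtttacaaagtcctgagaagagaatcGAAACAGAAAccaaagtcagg
*TLR3*, chr4:186069066-186069161, plus strand, 90 bases before the start and 6 after it: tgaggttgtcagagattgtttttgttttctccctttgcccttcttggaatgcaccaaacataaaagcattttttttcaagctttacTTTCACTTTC
*IFI16*, chr1:159009817-159009906, plus strand, the 90 bases before the start: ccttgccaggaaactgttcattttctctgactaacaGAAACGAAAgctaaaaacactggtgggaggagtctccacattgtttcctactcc
*RIGI*, chr9:32526327-32526416, minus strand, 220 to 131 bases before the start: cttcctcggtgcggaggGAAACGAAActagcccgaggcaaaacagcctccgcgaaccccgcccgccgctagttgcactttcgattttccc
*MAVS*, chr20:3846744-3846833, plus strand, the 90 bases before the start: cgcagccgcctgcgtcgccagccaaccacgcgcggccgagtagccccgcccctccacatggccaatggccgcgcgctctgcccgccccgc

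A gene was counted if any of its promoters in the table held the sequence. The response element core was found for 2 of the 7 genes, *IFIH1* and *TLR3*, against 4.38% of all 27305 genes with a promoter. In *IFIH1* the printed match lies 21 to 12 bases before the start, and 2 overlapping matches on the other strand lie further upstream. In *TLR3* the match spans the start itself. The closer spacing was found in *RIGI* and *IFI16*, and in 3.87% of all genes with a promoter. For *IFI16* this match lies before a start that is not the first in the table. *TBK1*, *MAVS* and *TREX1* had neither sequence. Of the other motifs searched, the AP-1 site TGANTCA was found in *TREX1* (9.37% of all genes with a promoter). The E2F site TTTGGCGC or TTTCCCGC was found in *IFIH1* (2.75%), where it overlaps an upstream response element match. The GAS element TTCNNNGAA was found in *TLR3* (9.38%) and the GC box GGGCGG in *RIGI*, *IFIH1*, *TLR3* and *MAVS* (48.3%). The NF-kB site and the CRE TGACGTCA were found for 0 of the 7 genes and for 8.28% and 2.25% of all genes. For comparison, 9 of the 10 IRF3 target genes with a promoter in the table held the response element core. The 379 tested genes that held it had a median log2 fold change of 0.08, and the 9813 tested genes with a promoter one of 0.09. A match describes the letters and not binding by a factor.

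*MAVS* (ENSG00000088888, chromosome 20, 3846799 to 3876123, plus strand) was at 32.6, 35.3 and 32.9 FPKM in the WT and at 28.0, 30.9 and 25.0 FPKM in the KO replicates. Each KO library lay below each WT library. The KO mean was 83.3% of the WT mean, with a log2 fold change of -0.26 (standard error 0.13, 95% interval -0.58 to 0.05, adjusted p = 0.350). *MAVS* has a long transcript and at least 25000 fragments in each library, so that counting error was small against the spread between lines.

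*TBK1* (ENSG00000183735, chromosome 12, 64452090 to 64502114, plus strand) was at 26.0, 24.0 and 22.5 FPKM in WT and at 24.4, 24.5 and 24.4 FPKM in KO replicates. The KO libraries lay inside the range of the WT libraries. The log2 fold change was 0.02 (standard error 0.12, adjusted p = 0.952), with a 95% interval from -0.27 to 0.31 that leaves out changes of the size seen for *CGAS*. *IRF3* (ENSG00000126456, chromosome 19, 49659569 to 49665875, minus strand) was at 59.2, 61.9 and 60.8 FPKM in WT and at 68.2, 67.8 and 67.1 FPKM in KO replicates. The KO libraries lay close together and above all WT libraries, by 11.6% in the mean. This was a small difference (log2 fold change 0.16, standard error 0.11, adjusted p = 0.489), and with median-of-ratios scaling it was 0.04 and the groups overlapped. *IRF3* shares 734 exonic bases with *BCL2L12* on the other strand, a gene with a log2 fold change of 0.60 (standard error 0.23).

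The separation of KO and WT libraries was recomputed under 5 other scalings. *CGAS*, *MAVS* and *TREX1* did not overlap under any of them. *IRF3* and *IFI16* overlapped with median-of-ratios scaling, quantile normalization and scaling by nuclear genes, which left 3 of the 10 genes apart in place of 5. With these 3 scalings, between 23.3% and 23.4% of all tested genes were apart. Under median-of-ratios scaling, 12.2% of all tested genes were apart and higher in KO and 11.2% apart and lower.

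*RIGI* and *IFIH1* shared their highest library, KO replicate 2, with the tested genes downstream of IRF3. *DHX58*, which encodes LGP2, a regulator of RIG-I and MDA5 without a signaling domain of its own, was at 3.21, 4.09 and 1.92 FPKM in WT and at 3.34, 7.20 and 2.52 FPKM in KO replicates. Its highest level was in KO replicate 2, as for *RIGI* and *IFIH1*. *EIF2AK2* was instead highest in KO replicate 3 (19.6 FPKM), and *IRF7* in WT replicate 2 (11.1 FPKM). *DDX60*, a helicase gene induced by interferon, had 5.60, 3.71 and 3.97 FPKM in WT and 11.2, 30.0 and 5.83 FPKM in KO replicates, and within WT it was lowest in replicate 2. All 7 tested IRF3 target genes had their highest level of the 6 libraries in KO replicate 2, the library that was highest for 8.34% of all tested genes. For *CCL5*, 1 of the 7, this was fixed by the filter, since it passed the minimum mean of 0.5 FPKM only through that library. *ISG20*, another of the 7, passed that minimum only through the KO group. Within the WT group, 5 of these 7 genes were highest in replicate 2, against 46.0% of all tested genes. *IFIT2*, whose product binds RNA, was at 9.53, 27.5 and 4.32 FPKM in WT and at 10.4, 32.4 and 6.21 FPKM in KO replicates, so that 1 line of each genotype was high. *ISG15*, a ubiquitin-like modifier gene, was at 5.60, 6.23 and 4.57 FPKM in WT and 10.6, 25.4 and 9.83 FPKM in KO replicates. *CGAS* was lowest in replicate 2 within the KO group and highest in replicate 2 within WT.

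**Figure D3:**
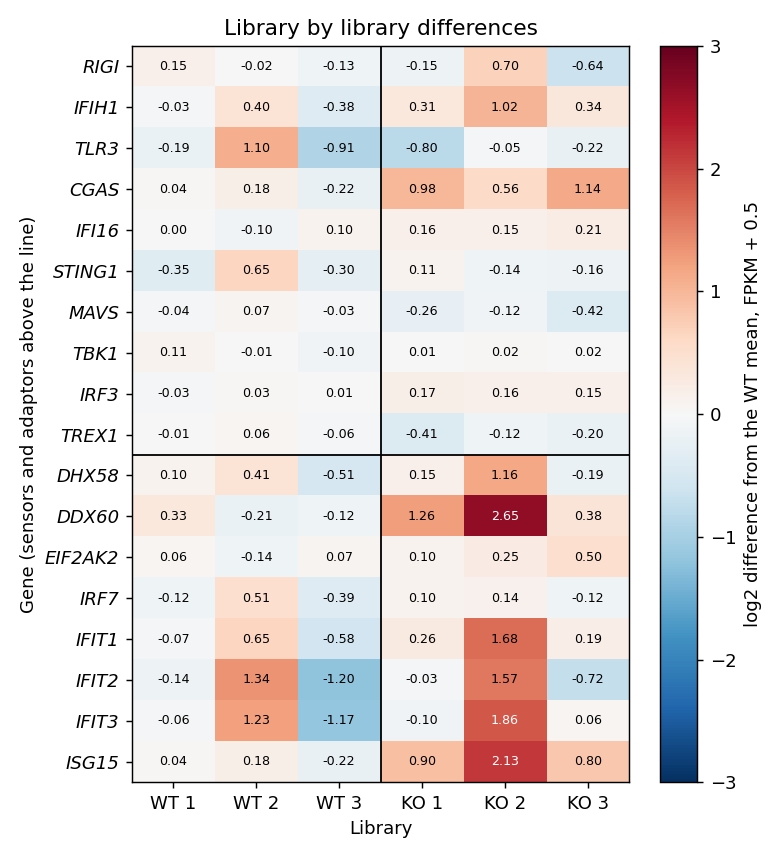
Log2 difference of each library from the mean of the 3 WT libraries (colour and printed number, of FPKM + 0.5) for the 10 sensor and adaptor genes (above the line) and for 8 other genes of the pathway. KO replicate 2 is the highest library for RIGI (0.70), IFIH1 (1.02), DHX58 (1.16) and the 4 IRF3 targets shown, whereas CGAS is at 0.98, 0.56 and 1.14 in KO replicates 1, 2 and 3. EIF2AK2 is highest in KO replicate 3 (0.50) and IRF7 in WT replicate 2 (0.51).

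Interferon genes were near or at the detection limit. *IFNB1*, encoding interferon beta, and the chemokine gene *CXCL10* were listed at 0 in each library. At the estimated depth, 3 fragments on a transcript of 1 kb correspond to 0.0343 to 0.0444 FPKM, which is the limit for counting error. *IFNL1*, a type III interferon gene, was listed at 0 in the 3 WT libraries and in KO replicate 3, and at 0.0146 and 0.0541 FPKM in KO replicates 1 and 2. *CCL5* was at 2.91 FPKM in KO replicate 2 and at 0.102 to 0.553 FPKM in the other 5 libraries. It passed the minimum mean of 0.5 FPKM only through KO replicate 2, so its direction in the next counts was largely set by the filter. The 12 genes of the list of IRF3 targets included 7 that could be tested, of which 0 were called. All 7 had a log2 fold change above 0, as did 60.6% of all tested genes, with a median log2 fold change of 0.61, and *ISG15* was the 1 gene of the list with separate groups (log2 fold change 1.28, standard error 0.35, adjusted p = 0.261). The median of the list was 0.05 without KO replicate 2, 0.35 without WT replicate 3 and 0.95 without WT replicate 2.

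Several other DNA sensors were barely detected in these cells. *AIM2*, which starts an inflammasome upon cytosolic DNA, was below the test minimum, at 0.0444 to 0.0709 FPKM in WT and 0.111 to 0.420 FPKM in KO libraries. *ZBP1*, a sensor of Z-form nucleic acids, stayed below 0.05 FPKM in each library, and *TLR9*, the endosomal DNA receptor, was listed at 0 in 5 of the 6 libraries. *PRKDC*, the catalytic subunit of the DNA repair kinase DNA-PK, was at 34.0 to 55.0 FPKM in WT and 55.5 to 85.2 FPKM in KO libraries (log2 fold change 0.64, standard error 0.22, adjusted p = 0.261). Of the 18 genes of this list 15 were tested and 0 were called. The log2 fold change was above 0 for 14 of the 15, where 60.6% of all tested genes were, and 8 were apart, all higher, where 18.3% of all tested genes were. For 12 of the 15, KO replicate 3 was the highest library, as for 38.7% of all tested genes, and it also had the lowest mitochondrial share. The part of that share in these levels was not tested. The median log2 fold change was 0.23, with *LRRFIP1* lowest at -0.09, and was 0.11 with median-of-ratios scaling and with quantile normalization. These scalings moved the median of all tested genes from 0.09 to -0.017 and -0.0084.

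Among the other RNA sensors, *EIF2AK2*, encoding the kinase PKR that stops translation upon double-stranded RNA, was at 12.4 to 14.4 FPKM in WT and 14.8 to 19.6 FPKM in KO libraries. Its log2 fold change was 0.29 (standard error 0.16, adjusted p = 0.379). *TLR8* was listed at 0 throughout, and *TLR7*, which like it recognizes single-stranded RNA, did not exceed 0.0259 FPKM. *NLRP1*, an inflammasome sensor of keratinocytes, was at 1.94 to 3.14 FPKM in WT and 0.787 to 2.43 FPKM in KO libraries (log2 fold change -0.47, standard error 0.34), the lowest value in the list. *DDX60* had the highest with 1.43 (standard error 0.51, adjusted p = 0.261). The ubiquitin ligases that activate RIG-I were at 59.0 to 118.5 FPKM for *TRIM25* and 9.42 to 15.7 FPKM for *RNF135* over all libraries, with overlapping groups. Of 17 genes 15 were tested and 0 were called. The log2 fold change was above 0 for 14 of the 15, where 60.6% of all tested genes were. In 6 the groups were apart, all higher, where 18.3% of all tested genes were. KO replicate 3 was the highest library for 10 of the 15, as for 38.7% of all tested genes. The median was 0.29, and 0.18 with median-of-ratios scaling.

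The other adaptors, kinases and IRFs did not share a direction. *TICAM1*, the adaptor of TLR3, was at 7.01 to 10.9 FPKM in WT and 9.93 to 11.5 FPKM in KO libraries. *MYD88*, the adaptor of most other Toll-like receptors, was at 20.8 to 30.3 FPKM in WT and 18.3 to 22.8 FPKM in KO libraries. *IKBKE*, the kinase related to TBK1, was at 10.7, 14.3 and 11.02 FPKM in WT and 10.6, 10.6 and 10.8 FPKM in KO replicates, and *IRF7* was close between the groups (log2 fold change 0.04, standard error 0.24). *TRAF3*, the ubiquitin ligase between MAVS and TBK1, had the highest value of the list. It was at 2.15, 2.84 and 2.42 FPKM in WT and 4.07, 3.62 and 6.36 FPKM in KO replicates (log2 fold change 0.77, standard error 0.24, adjusted p = 0.261). *OPTN*, which encodes an autophagy receptor that binds TBK1, had the lowest at -1.01 (standard error 0.38), with overlapping groups. The 463 tested genes of its chromosome, 10, had a median log2 difference of -0.26, taken relative to each library's own median. The part of that shift in the *OPTN* value was not tested. Of the 17 genes 0 were called, 7 had a log2 fold change above and 10 below 0, and the median was -0.06. Of all tested genes 60.6% were above 0.

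Genes that act on STING or on its ligand included *SLC19A1*, the folate carrier that also imports cyclic dinucleotides. It was at 1.29, 1.01 and 2.40 FPKM in WT and at 5.17, 4.68 and 16.6 FPKM in KO replicates, and each KO library lay above each WT library. The log2 fold change was 2.001 (standard error 0.48, adjusted p = 0.261), the highest in all the lists. The 121 tested genes of its chromosome, 21, had a median log2 difference of 0.33 between KO and WT, taken relative to each library's own median. The part of that shift in the *SLC19A1* value was not tested. *RNF5*, a ubiquitin ligase that acts on STING, was lower in each KO library, at 52.3 to 57.3 FPKM in WT and 35.4 to 47.6 FPKM in KO libraries (log2 fold change -0.42, standard error 0.15). *ENPP1*, which degrades extracellular cyclic GMP-AMP, did not exceed 0.0351 FPKM, and *STEEP1*, needed for STING to leave the endoplasmic reticulum, overlapped between the groups (log2 fold change 0.11, standard error 0.16). Of 15 genes 12 were tested, 0 were called and 8 were above 0, where 60.6% of all tested genes were. The median was 0.12, and it was 0.0059 with median-of-ratios scaling and 0.0021 with quantile normalization. Among 10 brakes of RIG-I signaling, all tested, 0 were called and 6 were above 0, where 60.6% of all tested genes were. The median was 0.19, and it was 0.083 with median-of-ratios scaling and 0.092 without KO replicate 3. *CYLD*, a deubiquitinase, was lowest at -0.50 (standard error 0.16), with 17.7 to 20.7 FPKM in WT and 11.98 to 16.2 FPKM in KO libraries, and *RNF125* highest at 0.58 (standard error 0.40).

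Genes that clear or edit nucleic acids, the group to which *TREX1* belongs by function, included the 3 subunits of RNase H2, which removes ribonucleotides from DNA. All 3 had log2 fold changes above 0. *RNASEH2A*, the catalytic subunit, was at 33.5, 26.6 and 39.5 FPKM in WT and 49.2, 42.1 and 62.8 FPKM in KO replicates (log2 fold change 0.62, standard error 0.20). *RNASEH2C* was at 12.03 to 14.1 FPKM in WT and 16.9 to 19.8 FPKM in KO libraries (0.48, standard error 0.14), and *RNASEH2B* overlapped between the groups (0.72, standard error 0.29). *SAMHD1*, a deoxynucleotide triphosphohydrolase, was at 10.4, 11.7 and 7.08 FPKM in WT and 10.7, 26.8 and 25.3 FPKM in KO replicates, the highest log2 fold change of the list with 0.99 (standard error 0.36, adjusted p = 0.263). *ADAR*, which edits double-stranded RNA, was at 46.5 to 49.4 FPKM in WT and 52.3 to 60.9 FPKM in KO libraries (0.22, standard error 0.12). *DNASE2*, the lysosomal DNase, was at 42.0 to 49.2 FPKM over all libraries (log2 fold change -0.09, standard error 0.12). *TREX2* was at 0.421 to 0.835 FPKM (0.21, standard error 0.23), and *XRN1* had the lowest value of the list with -0.25 (standard error 0.15). Of 15 genes 14 were tested, 0 were called, 10 were above 0, where 60.6% of all tested genes were, and 7 were apart (6 higher and 1 lower), where 24.1% of all tested genes were (18.3% higher and 5.77% lower). The median was 0.33, and 0.22 with median-of-ratios scaling. With p not above 0.05 before adjustment and the minimum fold, 4 of the 14 differed, all higher, where 10.2% of the tested genes were higher in this way.

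**Figure D4:**
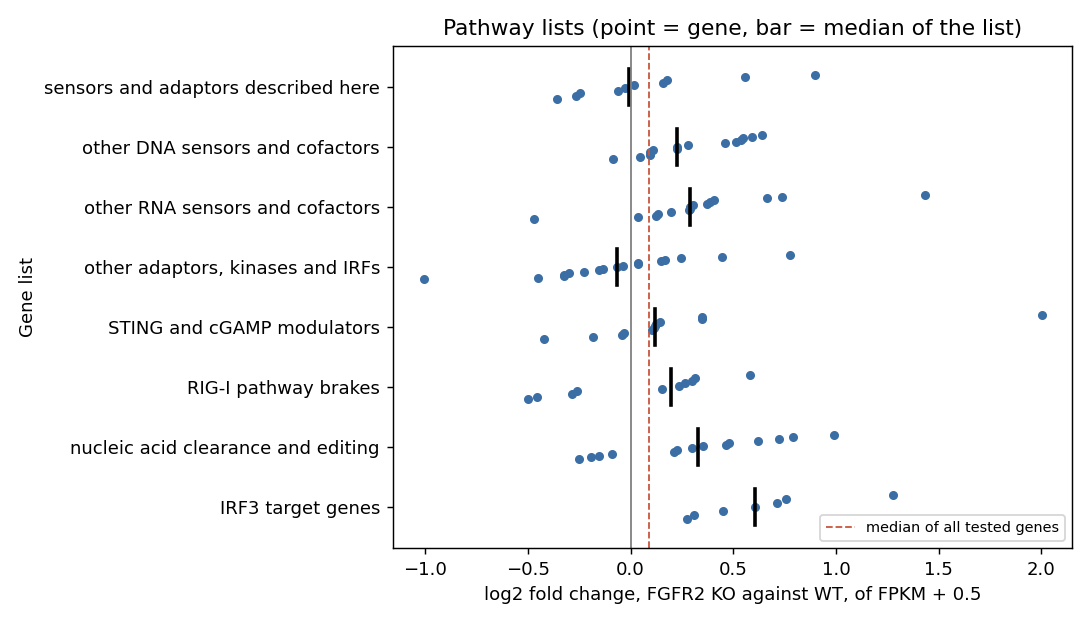
Log2 fold change between KO and WT libraries (horizontal axis, of FPKM + 0.5) for the tested genes of each pathway list, with 1 point per gene and a bar at the median of the list. The dashed line is the median of all tested genes, 0.09. The medians are -0.01 for the 10 sensors and adaptors, 0.33 for clearance and editing and 0.61 for the IRF3 targets, and 0 genes of any list were called.

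Across the alternative settings, *CGAS*, *IFIH1*, *IFI16*, *IRF3*, *MAVS* and *TREX1* kept the sign of their log2 fold change in each fit, whereas *STING1*, *RIGI*, *TLR3* and *TBK1* changed sign in at least 1. *CGAS* stayed between 0.77 and 1.06 when 1 library was left out, and between 0.75 and 1.08 under the other alternatives.

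**Figure D5:**
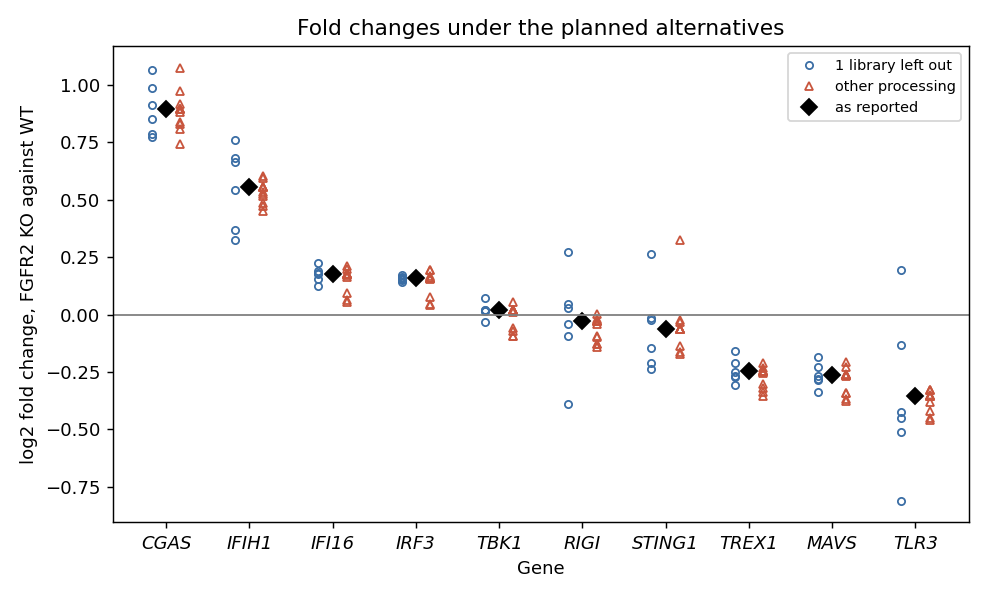
Log2 fold change of each gene between KO and WT libraries (vertical axis) as reported (diamonds), with each of the 6 libraries left out in turn (circles) and under the other planned processing alternatives (triangles). CGAS stays above 0.7 in all of them, and TLR3 runs from -0.81 to 0.19 depending on the library left out.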

How the data were processed

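Poly(A)-selected, stranded libraries of 3 WT and 3 *FGFR2* KO HaCaT lines were analysed. The authors trimmed reads with fastp 0.20.0 and pseudoaligned them with kallisto 0.46.1 to GRCh38.p13 with GENCODE gene models, and the deposited values are FPKM per gene and library, whose calculation, like the strand setting of the quantification, is not given in the sources used here. Of 21493 genes, 18 Y copies of pseudoautosomal genes were left out. Symbols and positions came from GENCODE release 44 on GRCh38, which matched 21400 of 21475 genes. The depth was estimated from the steps of low FPKM of genes with 1 transcript, of which 76.6% of 2821 values were whole fragments within 0.05 (10% by chance), and no count model was run. Genes averaging 0.5 FPKM or more were fitted with limma 3.58.1 (R 4.3.3) on log2(FPKM + 0.5), with a mean-variance trend, no block and no further scaling, and adjusted over all 12241 genes. The fit was tested on simulated data with independent counts and equal depth, which lacked the differences between lines and libraries seen here. A log2 fold change on this scale understates the change of weakly expressed genes. The genes, the lists, the promoter motifs, the named genes (all 10, others by role, and the highest and lowest of each list) and the alternatives were chosen with earlier results of these data known. Genes overlapping a member in the annotation and the marker genes of other cell types are named as well. Alternatives covered the scaling between libraries, the pseudocount, the minimum level, the trend, robust moderation, library quality weights, the replicate block and each library left out. The sums with overlapping genes and 1 promoter motif were added after seeing the data. No set test was run.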

Additional observations from a re-analysis of the deposited data

How the results depend on the processing

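The log2 fold changes of the 10 genes were computed under 19 alternatives each (20 for *RIGI* and *TREX1*), and 12 of the resulting 192 values had the opposite sign. *STING1* was 0.33 with library quality weights and went from -0.24 to 0.26 with 1 library left out, the sign turning without WT replicate 2. *RIGI* was 0.0016 with TPM scaling, and with 1 library left out it went from -0.39 to 0.27, above 0 without KO replicate 1, KO replicate 3 or WT replicate 1. *TLR3* went from -0.81 to 0.19 with 1 library left out, above 0 without WT replicate 2. *TBK1* was -0.071 with library quality weights, -0.093 with median-of-ratios scaling, -0.092 with quantile normalization and -0.060 with scaling to nuclear genes, and went from -0.031 to 0.071 with 1 library left out. Library quality weights, of which WT replicate 1 held 89.7% in its group, called 1396 genes (11.4%) in place of 0. With them 1 of the 10 genes was called (*CGAS*, 0.88, adjusted p = 0.0313, against 0.0313 to 0.614 over its alternatives), 2 adaptors, 1 STING modulator, 5 clearance genes and 1 IRF3 target, and *FGFR2* (-2.66, adjusted p = 0.0191). The cause was not tested. The labels do not state whether the replicate numbers pair the samples. Same-numbered WT and KO libraries correlated at -0.206, 0.225 and 0.049 in their deviations. With 3 libraries per group, whose deviations are bound to sum to 0, these values cannot decide whether the samples are paired. The replicate block called 0 genes, with *CGAS* at 0.90 (limma adjusted p = 0.172), and 1762 genes passed the unadjusted p with the minimum fold. At an unadjusted p the count of 1536 genes went from 633 without KO replicate 3 and 961 without WT replicate 1 to 2262 without KO replicate 2. Counting error at these depths was below the spread between lines for each of the 10 genes except *IRF3* and *TBK1* in the KO group.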
